A study of Mus musculus with 75 samples.

Results

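Knockdown of Atf3 with the short hairpin RNA sh6 was compared with a non-targeting hairpin (nt) by RNA-seq in mouse skin fibroblasts. The comparison held 6 of the 75 samples of the series, 3 labelled Atf3 sh6 and 3 labelled Atf3 nt, taken by their titles, and every gene was considered. All the cells carried the C57BL/6 background, and by the labels the control cells differed from the knockdown in the hairpin alone. The study's methods describe hairpins from a commercial library, carried into primary fibroblasts by lentivirus and followed by puromycin selection, in pre-senescent cells for Atf3. They name fibroblasts of newborn mice and of 2-month-old mice, the latter female, as the sources for gene manipulation, and the labels do not say which of these, or how many animals, stood behind each library. A second hairpin to Atf3, sh5, was run in 3 further libraries against the same nt libraries. The series as a whole followed skin fibroblasts over 4 culture passages, from P1 to P7, towards replicative senescence, the permanent growth arrest of cells that have divided many times, and also held knockdowns of Tead1 and E2f4.

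ATF3 is a basic leucine zipper transcription factor of the CREB/ATF family and belongs to the wider AP-1 group. It is made at a low level in resting cells and is induced quickly by stress, growth factors and DNA damage, among others through ATF4 in the integrated stress response and through p53. It binds DNA as a homodimer or with JUN and related proteins, at AP-1 and cyclic AMP response sites, and is known both to repress and to activate its targets. A hairpin RNA is cut in the cell into a short RNA that guides the degradation of matching transcripts, so the level of Atf3 itself was the first check of the labels.

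The 6 libraries held between 17245955 and 23380496 reads assigned to genes, and 13345 genes of 24984 had enough counts to be tested. The first principal component of the 9 Atf3 libraries took 55.0% of the variance and set the 3 sh6 libraries apart from all nt and sh5 libraries. The second, with 26.6%, set sh5 replicate 3 apart from every other library. That library entered the estimate of the spread for all comparisons. Without it 8703 of 13513 genes passed an adjusted p of 0.05 with sh6 (4353 higher and 4350 lower), against 6642 with it. The list counts that moved by over 1.5 times are given beside each list below. Among the nt libraries, replicate 1 stood apart in interferon-stimulated genes, described below. Nothing in the labels says that the 3 libraries of a group came from separate cultures, so the p-values measure only the spread between these samples. The fibroblast label was checked against 14 markers, all of which were detected and tested, among them Col1a1, Col1a2, Pdgfra, Thy1 and Vim. Summed levels of the markers of other cell types are given with the fibroblast markers below. Of those lists Krt1, Tie1, Cldn5, Lep, Tyr, Dct, Myf5 and Pax7 had no count in any of the 9 libraries. Each of the 14 macrophage markers had a read in at least 1 library, but 6 of them stayed under 10 reads in every library. Transcripts of both sexes were present. Xist, the RNA of the inactive X chromosome, stood at 327, 313 and 301 CPM (reads scaled to library size) in the nt libraries and 199, 222 and 269 CPM in the sh6 libraries, whereas the Y-linked helicase Ddx3y stood at 87.2, 79.9 and 82.5 CPM and 120.1, 127 and 136 CPM. Xist fell and Ddx3y rose with sh6 (log2 fold change -0.45 ± 0.11 and 0.62 ± 0.08, SE; adjusted p = 0.0054 and 0.000109), the Y-linked Uty rose by 0.35, and Eif2s3y and Kdm5d moved by 0.21 and 0.17 without passing the test. The Uty call was lost in 4 alternatives, and Eif2s3y passed without sh5 replicate 3 (0.22, adjusted p = 0.0349). Ddx3y was read in all 6 libraries, which cells of female mice alone do not supply. The part of these sex-linked differences in the results below was not tested.

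Atf3, on chromosome 1 at 191170296 to 191183333 (GRCm38, minus strand), was weakly expressed in every library. It stood at 3.31, 2.85 and 2.77 CPM in the nt libraries, from 78, 52 and 60 reads, and at 1.51, 1.56 and 2.09 CPM in the sh6 libraries, from 26, 26 and 36 reads. All 3 sh6 libraries lay below all 3 nt libraries, as 67.6% of all tested genes lay apart in one direction or the other. The log2 fold change was -0.79 ± 0.39 (SE, n = 3 and 3), or 1.73-fold lower, and did not pass the test (edgeR quasi-likelihood, adjusted p = 0.114). When only the 6 libraries of the comparison were fitted the adjusted p was 0.00714, and without sh5 replicate 3 in the shared fit it was 0.00865. With sh5 the value was -1.14 ± 0.39 (adjusted p = 0.0447), from 1.46, 2.10 and 0.451 CPM, and the levels with the 2 hairpins did not differ beyond their spread (sh6 minus sh5 0.35 ± 0.42, adjusted p = 0.504). The study checked its knockdown of Atf3 separately, by RT-qPCR of the RNA and by immunoblot of the protein. Those measurements are not among the read counts used here. In the passage libraries, scaled in a separate fit, Atf3 averaged 7.76 ± 0.284 CPM in P1 cells, 9.72 ± 0.141 CPM in P3 cells, 14.3 ± 3.04 CPM in P5 cells and 14.8 ± 7.83 CPM in P7 cells (SD, n = 4 each).

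The 300 bases around the Atf3 start, 250 before and 50 after it, lie at chr1:191183284-191183583 on the minus strand (RefSeq, GRCm38.p6). They are shown because the window holds a composite C/EBP-ATF site, the kind of site through which ATF4 acts, here in capitals and beginning 110 bases before the start:
Atf3 promoter: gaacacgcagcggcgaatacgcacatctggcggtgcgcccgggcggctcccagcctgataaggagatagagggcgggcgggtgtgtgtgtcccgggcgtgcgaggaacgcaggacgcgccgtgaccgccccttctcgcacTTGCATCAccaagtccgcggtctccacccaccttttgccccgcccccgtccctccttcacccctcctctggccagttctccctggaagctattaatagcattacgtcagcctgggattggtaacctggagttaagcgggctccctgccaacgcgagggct
This 8-letter motif, TGATGNAA on either strand, was found in 3.97% of 32851 promoter windows of the same length. The cyclic AMP response element TGACGTCA was found in 1.79% of them and the AP-1 site TGANTCA in 7.81%, and neither is in the Atf3 window. An ATAC-seq peak, marking accessible chromatin, overlapped the window in all 13 accessibility libraries of the passage course, with a fold enrichment at the summit of 9.84 to 16.1.

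Inhibitors of cyclin-dependent kinases, the proteins that hold senescent cells out of the cell cycle, did not move together. Of 7 tested, 5 were lower and 1 higher with sh6. Of all tested genes, 23.8% were higher and 26% lower at an adjusted p under 0.05. Cdkn2a, the locus of p16 and p19ARF on chromosome 4 at 89274473 to 89294619 (minus strand), stood at 70.02, 78.3 and 75.4 CPM with nt and 43.8, 40.99 and 28.9 CPM with sh6. The sh6 libraries were all lower, and Cdkn2a fell by 0.98 on the log2 scale with an SE of 0.19 (adjusted p = 0.00173), a 1.97-fold difference just short of the 2-fold threshold. The counts are summed over the locus and do not separate p16 from p19ARF.

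Its neighbour Cdkn2b, the gene of p15, went from 50.3, 54.9 and 58.1 CPM to 24.3, 23.6 and 24.5 CPM and fell further (log2 fold change -1.17 ± 0.10, adjusted p = 6e-06). Cdkn2c, the gene of p18, stood at 18.6, 21.3 and 20.6 CPM with nt and 15.6, 14.02 and 14.6 CPM with sh6 and fell by 0.45 on the log2 scale (adjusted p = 0.0165), a call lost without nt replicate 2 or 3 and without sh6 replicate 2 or 3. Cdkn2d, the gene of p19INK4d, overlapped between the groups at 6.57, 8.45 and 7.99 CPM and 6.92, 6.11 and 5.23 CPM, and its log2 fold change of -0.33 ± 0.26 did not pass the test (adjusted p = 0.315). The largest change of the family was in Cdkn1c, the imprinted gene of p57, which dropped from 93.6, 91.9 and 102 CPM to 2.73, 3.36 and 4.01 CPM, 28.4-fold lower (log2 fold change -4.83 ± 0.16, adjusted p = 2.7e-08). Cdkn1a, the p53-induced gene of p21, went the other way, from 652, 691 and 681 CPM to 1127, 1093 and 1067 CPM (log2 fold change 0.70 ± 0.15, adjusted p = 0.00266). With sh5 the values were -0.74 ± 0.19 for Cdkn2a, -0.44 ± 0.10 for Cdkn2b, -1.47 ± 0.13 for Cdkn1c and -0.17 ± 0.15 for Cdkn1a. The difference between the hairpins passed the test for Cdkn2b, Cdkn1c and Cdkn1a (adjusted p = 0.000161, 2.1e-07 and 0.000683) and not for Cdkn2a (adjusted p = 0.317).

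**Figure D1:**
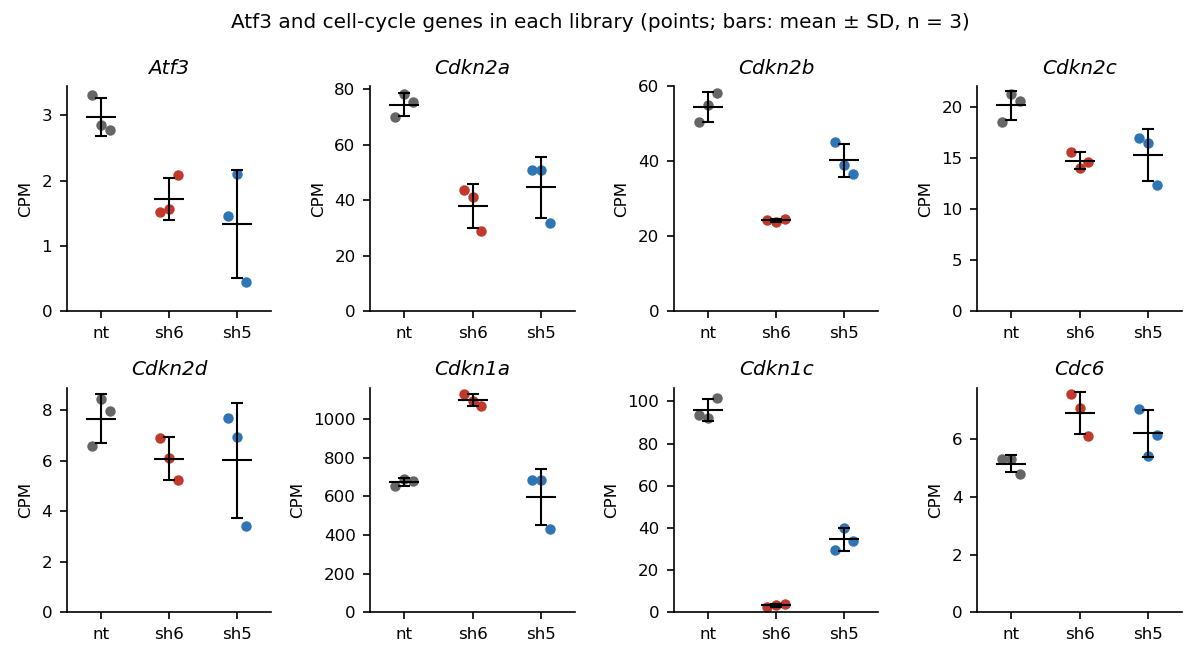
Level in CPM (y axis, from 0) of Atf3, 6 inhibitors of cyclin-dependent kinases and Cdc6 in each nt, sh6 and sh5 library, with bars for the mean ± SD of 3 libraries. Cdkn2a, Cdkn2b and Cdkn1c lie lower in every sh6 library than in any nt library, Cdkn1a lies higher, and the groups overlap for Cdkn2d.

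Cdc6, which loads the replicative helicase onto DNA before S phase, stood at 5.30, 5.32 and 4.80 CPM with nt and 7.55, 7.07 and 6.10 CPM with sh6. It rose by 0.43 on the log2 scale at an adjusted p of 0.0406, and that call was lost in 8 alternatives, among them DESeq2. Cdk8, a kinase of the Mediator complex, rose from 54.7, 54.3 and 52.7 CPM to 89.5, 95.8 and 94.7 CPM (log2 fold change 0.79 ± 0.07, adjusted p = 6.2e-06). The 2 promoters of Cdkn2a are shown because each lay under an ATAC-seq peak in all 13 passage libraries, and neither holds any of the 3 motifs. The first, at chr4:89282143-89282442, starts the p16 transcript and the second, at chr4:89294570-89294869, the p19ARF transcript, both on the minus strand (RefSeq, GRCm38.p6):
Cdkn2a inner promoter: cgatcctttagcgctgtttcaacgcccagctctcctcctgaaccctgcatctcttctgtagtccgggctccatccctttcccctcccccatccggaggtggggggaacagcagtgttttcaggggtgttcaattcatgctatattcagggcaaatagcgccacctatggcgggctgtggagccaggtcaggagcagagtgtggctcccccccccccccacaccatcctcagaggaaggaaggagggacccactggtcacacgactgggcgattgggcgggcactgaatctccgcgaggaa
Cdkn2a outer promoter: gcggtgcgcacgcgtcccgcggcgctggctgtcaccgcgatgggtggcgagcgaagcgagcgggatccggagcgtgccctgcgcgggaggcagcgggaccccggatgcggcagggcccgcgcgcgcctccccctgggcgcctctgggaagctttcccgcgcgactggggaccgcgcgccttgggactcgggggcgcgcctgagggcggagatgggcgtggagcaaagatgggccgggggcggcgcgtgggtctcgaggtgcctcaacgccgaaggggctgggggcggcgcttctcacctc
Fold enrichment at the summit ran from 5.15 to 14.02 over the inner window and from 9.91 to 14.8 over the outer one. Across the passages Cdkn2a went from a mean of 8.06 ± 1.17 CPM at P1 to 224 ± 36.5 CPM at P7 (SD, n = 4).

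Across all genes, sh6 changed the transcriptome broadly. With an adjusted p under 0.05 and a change of over 2-fold, 645 genes were called higher, 4.83% of those tested, and 1449 lower, 10.9%. The median log2 fold change of all tested genes was -0.02. Genes lower outnumbered genes higher among calls in every alternative tried, the test against a 1.5-fold change included (796 higher and 1437 lower), and the counts without sh5 replicate 3 were 718 and 1543.

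**Figure D2:**
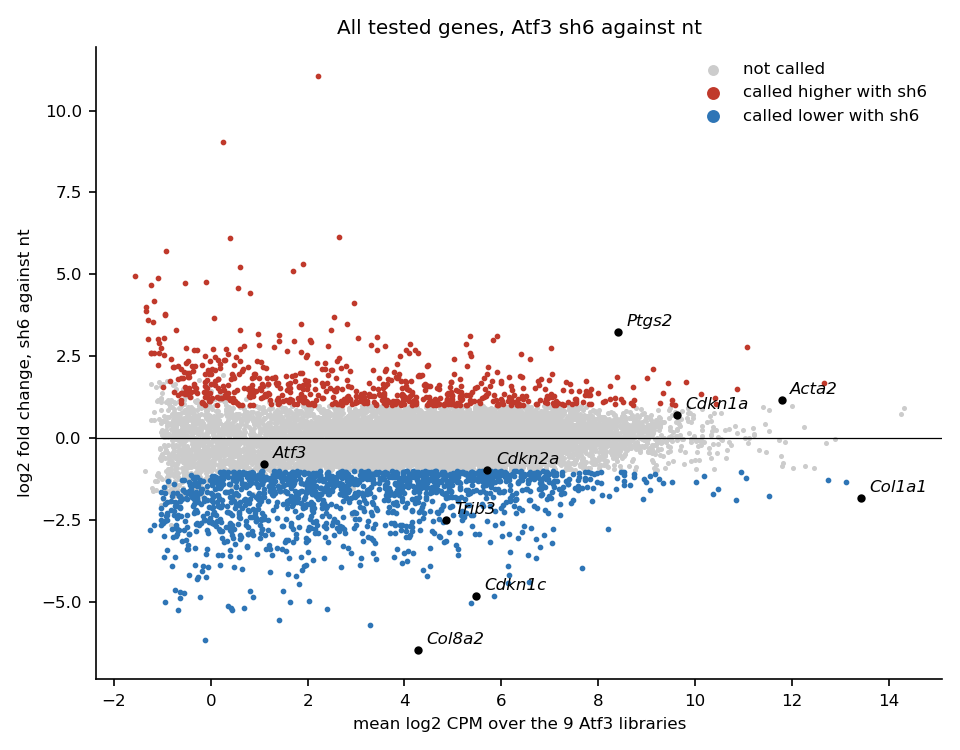
Log2 fold change of sh6 against nt (y axis) by mean log2 CPM over the 9 Atf3 libraries (x axis) for the 13345 tested genes, with 645 called higher in red, 1449 called lower in blue and named genes as black points. Col8a2 lies at -6.47 and Ptgs2 at 3.24, while Atf3 and Cdkn2a lie within the uncalled band.

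The 12 highest genes by the fixed rule lay between 2.76 and 3.24 on the log2 scale. The rule took called genes whose sh6 and nt libraries did not overlap and whose log2 CPM averaged at least 3 over the 9 Atf3 libraries. Ptgs2, the inducible cyclooxygenase that makes prostaglandins (chromosome 1, 150100031 to 150108234, plus strand), went from 79.3, 78.9 and 71.2 CPM to 698, 735 and 732 CPM, a log2 fold change of 3.24 ± 0.09 (adjusted p = 1.8e-08). Ereg, the EGF receptor ligand epiregulin, stood at 16.2, 13.8 and 14.6 CPM and 121, 132 and 133 CPM. In both genes every sh6 library lay above every nt library, with fitted folds of 9.44 for Ptgs2 and 8.65 for Ereg. Others of the group act at the cell surface: Sema7a, a membrane-bound semaphorin, rose by 3.12, Pvr, the poliovirus receptor of cell adhesion, by 2.76, the adenosine receptor Adora2b by 2.88 and the sialic-acid lectin Siglecg by 3.00. Fgl2, a secreted fibrinogen-like protein, Ifi27l2b, Nup62cl and Xk rose by 2.86, 3.09, 2.83 and 2.82. Mstn, the growth inhibitor myostatin of the TGF-beta family, went from 0.763, 1.26 and 1.06 CPM to 7.61, 9.71 and 8.37 CPM, and it was the member of the 12 that was higher still with sh5 (13.4, 12.4 and 19.2 CPM). Its nt level was low, and it reached the average that the rule asked for only through the sh6 and sh5 libraries.

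Of these 12 and the 12 lowest genes, 16 had a promoter window in the RefSeq table, and none of these windows held the cyclic AMP response element. The AP-1 site was found in the windows of 2 genes, Fgl2 and Mstn, and the composite site in that of Fgl2. Both windows are shown with the matches in capitals. In Fgl2 the composite match begins 58 bases and the AP-1 match 16 bases before the start (chr5:21372423-21372722, plus strand), and in Mstn the AP-1 match begins 170 bases before it (chr1:53061390-53061689, plus strand; both GRCm38.p6):
Fgl2 promoter: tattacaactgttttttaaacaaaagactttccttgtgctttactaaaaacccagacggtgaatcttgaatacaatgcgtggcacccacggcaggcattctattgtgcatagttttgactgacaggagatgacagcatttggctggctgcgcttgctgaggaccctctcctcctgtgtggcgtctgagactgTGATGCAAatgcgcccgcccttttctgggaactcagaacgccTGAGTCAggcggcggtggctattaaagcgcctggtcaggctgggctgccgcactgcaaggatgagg
Mstn promoter: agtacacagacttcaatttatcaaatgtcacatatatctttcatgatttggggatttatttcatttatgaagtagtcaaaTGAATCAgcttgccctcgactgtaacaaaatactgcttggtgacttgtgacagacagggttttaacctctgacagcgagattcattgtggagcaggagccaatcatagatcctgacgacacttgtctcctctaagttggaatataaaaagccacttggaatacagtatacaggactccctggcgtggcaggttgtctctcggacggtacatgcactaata
ATAC-seq peaks overlapped the Fgl2 window in all 13 passage libraries, with a fold enrichment of 7.57 to 15.7, and the Mstn window in 0 of 13. A match is a description of the letters and does not show that ATF3 binds there.

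The 12 lowest genes lay between -3.90 and -6.47 on the log2 scale, a wider range than the highest. Col8a2, a short-chain collagen (chromosome 4, 126286794 to 126314330, plus strand), went from 42.7, 49.1 and 55.7 CPM to 0.697, 0.180 and 0.755 CPM (log2 fold change -6.47 ± 0.31, adjusted p = 1.7e-07). Eln, the elastin of elastic fibres, went from 141, 157 and 155 CPM to 4.36, 4.55 and 7.09 CPM (-4.82 ± 0.48, adjusted p = 1.9e-05). Fmod, a proteoglycan that binds collagen fibrils, went from 139, 133 and 132 CPM to 6.33, 6.11 and 6.51 CPM. Prelp (-4.39) and Ogn (-4.18) are small leucine-rich proteoglycans like Fmod. Selenop, the selenium carrier protein, fell by 5.02, Tril, a helper of Toll-like receptors, by 5.69 and Sema3f, a secreted semaphorin, by 4.20 on the log2 scale. Ccn3, a matricellular protein, the chemerin receptor Cmklr1 and the angiotensin receptor Agtr2 fell by 3.97, 4.02 and 3.90. In Selenop 18.6% of the exon bases are also exons of Ccdc152, and since reads were counted without strand the 2 genes cannot be told apart there.

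**Figure D3:**
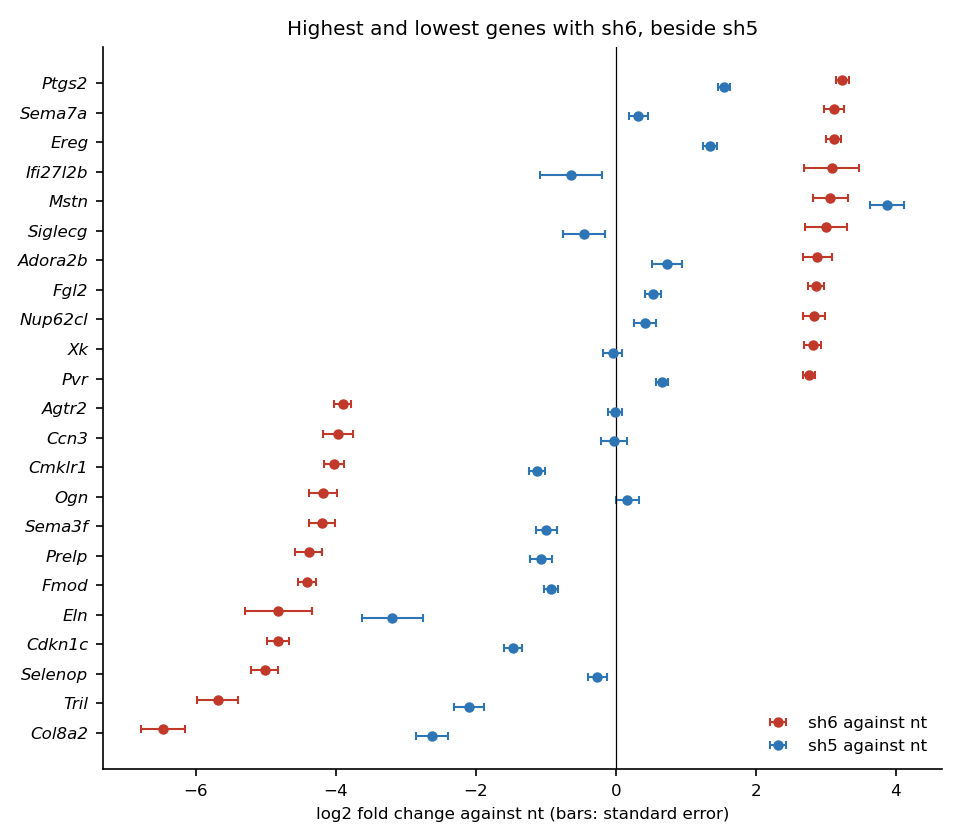
Log2 fold change against nt (x axis, bars for the standard error) of 23 of the 12 highest and 12 lowest genes with sh6 (red), beside the value of the same genes with sh5 (blue). The sh6 values were chosen as the extremes, from -6.47 for Col8a2 to 3.24 for Ptgs2, and the sh5 values, which share the nt libraries, run from -3.19 for Eln to 3.87 for Mstn.

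Outside the rule, and chosen after their values were seen, 2 genes had no read in any nt library and 10 or more in every sh6 library. Havcr1, a phosphatidylserine receptor known as a marker of kidney injury (chromosome 11, 46739822 to 46779578, plus strand), had 235, 246 and 240 reads in the sh6 libraries and 0 in all 6 nt and sh5 libraries. Its mean of 14.1 ± 0.564 CPM (SD, n = 3) with sh6 was at least 85.8-fold higher than the level of 3 reads in a nt library. Doxl2, an amine oxidase gene, had 48, 61 and 68 reads with sh6, 0 with nt and 1 read in all of sh5, at least 21.1-fold higher by the same floor. In the opposite direction, 0 genes met this condition.

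Genes of the extracellular matrix were lower in most members, though its most abundant glycoproteins were higher. Among 23 collagens tested, 15 (65.2%) were lower and 1 (4.35%) higher with sh6, against 26% and 23.8% of all tested genes. Their median log2 fold change was -0.85. Col1a1, the main chain of type I collagen, went from 16525, 17335 and 16256 CPM to 4705, 4591 and 4803 CPM (-1.83 ± 0.21, adjusted p = 4.8e-05), and its partner chain Col1a2 fell by 1.33 on the log2 scale. Type III (Col3a1, -0.92) and type VI (Col6a1 -0.62, Col6a2 -0.77 and Col6a3 -1.87) fell with it, and so did the fibril-associated Col14a1 (-3.51), the fibrillar Col11a1 (-3.08) and the basement membrane collagens Col15a1 (-2.58) and Col18a1 (-2.39). The main basement membrane chains Col4a1 and Col4a2 stood at 0.00 and -0.12 and did not pass the test. Col4a3 was the one member that rose, from a mean of 0.317 CPM to 1.84 CPM. Summed over the list, collagens stood at 55100, 59260 and 56230 CPM in the nt libraries and 28200, 27210 and 28770 CPM in the sh6 libraries, so the share of reads on collagens was lower in each sh6 library by close to a factor of 2. In bulk RNA, fewer cells making a product and less RNA per cell cannot be told apart.

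Of 52 glycoproteins, proteoglycans and crosslinking enzymes tested, 34 (65.4%) were lower and 10 (19.2%) higher, against 26% and 23.8% of all tested genes. Their median was -0.91. The elastic fibre genes fell together, with Eln at -4.82, Mfap4 at -2.93, Ltbp4 at -2.89, the fibrillin Fbn2 at -1.77 and Fbln5 at -0.71. Lox, the enzyme that crosslinks elastin and collagen, fell by 1.75, and the large proteoglycan Vcan by 1.55 on the log2 scale. Among the 10 members that rose were fibronectin (Fn1, 0.92), tenascin C (Tnc, 1.69), the thrombospondins Thbs1 (0.74) and Thbs2 (0.97), osteopontin (Spp1, 1.87), the laminin chain Lamb1 (0.80) and the crosslinker Loxl2 (0.70). Fn1 and Thbs1 were the most abundant members, and the summed level of the list was higher with sh6 (101600, 105700 and 103700 CPM) than with nt (84640, 85000 and 80300 CPM), opposite in sign to its median.

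Matrix proteases and their inhibitors also had members in both directions. Of 30 tested, 15 (50%) were lower and 8 (26.7%) higher, with a median of -0.36. Over all tested genes the shares were 26% and 23.8%, so the share of members higher was near that of all genes. The stromelysins and collagenases known from inflamed tissue rose from very low levels: Mmp10 from 0.467, 0.0549 and 0.185 CPM to 19.6, 17.7 and 16.6 CPM, Mmp13 from 0.339, 0.604 and 0.924 CPM to 5.81, 5.39 and 5.29 CPM, and Mmp3 by a log2 fold change of 2.28. Mmp12, the macrophage elastase, had at most 1 read in any nt library and 13, 25 and 19 in the sh6 libraries. The urokinase Plau rose by 1.74. Mmp28 (-3.19), the aggrecanase Adamts5, Mmp11 (-1.31) and the inhibitors Timp3 (-1.21) and Timp2 (-0.62) fell. In Mmp28, 20.3% of exon bases are shared with overlapping genes. The constitutive gelatinase Mmp2 fell by 0.35 on the log2 scale.

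Contractile genes, which mark the myofibroblast state, were higher in most members. Of 25 tested, 17 (68%) were higher and 1 (4%) lower, with a median of 0.68, against 23.8% and 26% of all tested genes. Acta2, smooth muscle actin, went from 2757, 2793 and 2552 CPM to 5851, 6175 and 6116 CPM (1.16 ± 0.06, adjusted p = 2.8e-07). Myh11, smooth muscle myosin, went from 45.4, 53.8 and 48.8 CPM to 192, 181 and 184 CPM (1.91 ± 0.13), Actg2, enteric actin, rose by 1.74, the calponin Cnn1 by 1.65 and the leiomodin Lmod1 by 1.53. Tagln, Tpm1, Tpm2, Tpm4, Myl9 and Actn1 rose by 1.03, 0.78, 0.57, 0.70, 0.69 and 0.89. The 1 member that fell was Des, from 2.16, 2.63 and 3.19 CPM to 0.988, 1.68 and 1.28 CPM, a call lost in 3 alternatives, and without sh5 replicate 3 the members lower numbered 3. Srf, the transcription factor of contractile genes, rose by 1.03. Skeletal muscle actin, Acta1, went from 35.2, 34.2 and 35.2 CPM to 213, 210.2 and 194 CPM, while the muscle regulators Myf5 and Pax7 had no read in any library and Myod1 had at most 3. With sh5 the median of the contractile list was -0.37, Acta2 stood at -0.50 ± 0.06 and Myh11 at -1.47 ± 0.14. The difference between the hairpins was 1.66 ± 0.06 for Acta2 and 3.39 ± 0.14 for Myh11 (adjusted p = 7.3e-08 and 1.3e-07), and 20 of the 25 members were higher and 2 lower with sh6 than with sh5. In that comparison 25.9% of all tested genes were higher and 26.6% lower at an adjusted p under 0.05.

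The YAP/TEAD pathway, which drives matricellular and cytoskeletal genes downstream of tension, had members in both directions, and its best known targets were among those that rose. Ccn2 (connective tissue growth factor) went from 507, 572 and 539 CPM to 1839, 1819 and 1713 CPM (1.73 ± 0.08), Ccn1 from 410.4, 441 and 424 CPM to 1155, 1138 and 1036 CPM (1.38 ± 0.07) and Ankrd1 from 6.96, 8.83 and 6.88 CPM to 46.8, 46.3 and 42.7 CPM (2.59 ± 0.16). The coactivator Wwtr1 (TAZ) fell by 1.47 on the log2 scale and the factors Tead2 and Tead3 by 1.26 and 1.02, whereas Tead1 rose by 0.25, a call lost in 4 alternatives, and Yap1 stood at -0.01. Over the list 7 (35%) of 20 members rose and 6 (30%) fell (median 0.13), against 23.8% and 26% of all tested genes.

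Ligands of the TGF-beta family changed in both directions. Of 36 members tested, 11 (30.6%) were higher and 14 (38.9%) lower, with a median of -0.27, against 23.8% and 26% of all tested genes. Inhba, the subunit of activin A, went from 340.5, 335 and 321 CPM to 1026, 1059 and 1093 CPM (1.67 ± 0.06), Inhbb rose by 1.24, Tgfb2 by 1.09 and Tgfb3 by 1.10, while Tgfb1 went from 92.97, 104 and 101 CPM to 36.8, 29.7 and 29.6 CPM (-1.63 ± 0.15). Members of the BMP branch fell, Bmp6 by 3.45, the antagonist Nog by 3.93, the inhibitory Smad6 by 1.49 and the target genes Id1 and Id2 by 1.01 and 1.26 on the log2 scale. The antagonist Grem1 rose by 1.08.

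The integrated stress response, in which ATF4 raises genes of amino acid synthesis and transport and ATF3 itself, was lower in most members. Of 46 genes tested, 28 (60.9%) were lower and 8 (17.4%) higher, with a median of -0.63, against 26% and 23.8% of all tested genes. Atf4 went from 283, 275 and 286 CPM to 166, 162 and 157 CPM (-0.80 ± 0.18, adjusted p = 0.00358), and its target Trib3, a pseudokinase, from 53.5, 55.3 and 59.3 CPM to 10.9, 9.17 and 9.47 CPM (-2.51 ± 0.17, adjusted p = 1.4e-06). Ddit3 (CHOP) went from 81.8, 87.8 and 95.2 CPM to 45.4, 43.2 and 37.996 CPM (-1.07 ± 0.11). The mitochondrial folate enzyme Aldh1l2 fell by 2.69, the stress protein Nupr1 by 2.34, Chac1, which degrades glutathione, by 1.91, and the serine synthesis enzymes Phgdh, Psat1 and Psph by 0.94, 1.03 and 0.84 on the log2 scale. Not all members followed. Asns, asparagine synthetase, stood at -0.06 (adjusted p = 0.653), and the cystine transporter Slc7a11 (0.70) and the tRNA synthetases Nars (0.71) and Mars (0.47) rose.

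Among 14 CREB/ATF factors, the family of ATF3, 5 (35.7%) were lower and 4 (28.6%) higher, against 26% and 23.8% of all tested genes. Besides Atf4, the stress-induced Atf5 went from 312, 355 and 345 CPM to 129.7, 118 and 108 CPM (-1.51 ± 0.39) and Creb3l1, a regulator of collagen secretion, from 142, 150.1 and 130.4 CPM to 32.2, 30.03 and 34.97 CPM (-2.12 ± 0.26), while Crem rose by 1.35 and Creb5 by 1.04. Of 14 FOS, JUN, MAF and BATF factors, partners of ATF3 in AP-1, 3 (21.4%) were lower and 3 (21.4%) higher, or 4 and 8 without sh5 replicate 3. Jun rose by 0.39 from 89.3, 94.6 and 96.2 CPM to 133, 122 and 111 CPM, a call lost in 5 of the 6 settings that left out 1 nt or sh6 library. Fosl1 stood at 2.97, 3.29 and 3.37 CPM with nt and 7.21, 7.79 and 5.98 CPM with sh6 without passing the test (adjusted p = 0.113, or 0.00018 without sh5 replicate 3), and 67.7% of its exon bases are shared with Ccdc85b. Fos overlapped between the groups, at 6.32, 5.43 and 6.97 CPM and 5.11, 7.25 and 6.33 CPM. Maf fell by 1.08, and Jdp2, an AP-1 repressor, by 1.01 on the log2 scale. Other immediate-early genes rose in 12 (57.1%) and fell in 4 (19%) of 21 cases (median 0.43). Zfp36, which degrades cytokine mRNAs, stood at 1.48, Nr4a1 at 1.28 and the phosphatase Dusp4 at 1.47 against Klf2 at -2.02, Klf4 at -1.49 and Egr1 at -0.55. In the unfolded protein response of the endoplasmic reticulum 8 (38.1%) of 21 members fell and 2 (9.52%) rose (median -0.13). Herpud1 stood at -1.15 and the chaperone Hspa5 at -0.41 against Dnajb9 at 0.73. Without sh5 replicate 3 the counts were 8 lower and 6 higher, against 4350 and 4353 of 13513 genes in that fit.

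Of 28 inflammatory genes tested, many of them part of the senescence-associated secretory programme, 8 (28.6%) were higher and 6 (21.4%) lower (median 0.12). These shares were close to the 23.8% and 26% over all genes, and without sh5 replicate 3 the counts were 12 and 8. Besides Ptgs2, Il6 went from 1.27, 0.823 and 0.970 CPM to 6.33, 6.41 and 6.62 CPM (2.64 ± 0.20, adjusted p = 2.8e-06), Il11 from 2.84, 4.77 and 4.80 CPM to 15.8, 12.6 and 13.7 CPM, Lif rose by 1.36 and Csf1 by 0.82. The inhibitors Nfkbia (-0.66) and Il1rn (-1.64) and the prostaglandin synthase Ptges (-0.93) fell. The transcription factors Nfkb1 and Rela stood at 0.15 and 0.47 and did not pass the test. Of 15 chemokines, 5 (33.3%) were higher and 4 (26.7%) lower (median -0.21), against 23.8% and 26% over all genes. The monocyte attractants Ccl7 (1.44), Ccl8 (1.73) and Ccl2 (0.50) rose, and Cxcl12, which retains progenitor cells in their niche, fell by 1.25 on the log2 scale, while Cxcl1 overlapped between the groups.

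Interferon-stimulated genes were lower with sh6 on the main count, and that count moved with single libraries. Of 38 tested, 15 (39.5%) were lower and 0 higher, with a median of -1.15, against 26% and 23.8% of all tested genes. Summed over the list, the nt libraries stood at 2656, 1206 and 839 CPM and the sh6 libraries at 918, 724 and 950.3 CPM, so nt replicate 1 was far above the other two and nt replicate 3 lay within the sh6 range. Ifit3 had 131, 13.3 and 10.5 CPM in the nt libraries and 5.81, 4.85 and 10.98 CPM in the sh6 libraries, which overlap, and its call was lost in 4 alternatives. Without nt replicate 1, 4 members were lower and 2 higher, and the median was -0.31. The members lower numbered 8 without sh6 replicate 1 and 4 without sh6 replicate 2, 26 without nt replicate 3, and 28 of 40 without sh5 replicate 3, with a median of -1.20.

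Targets of p53, the DNA damage factor that induces Cdkn1a, rose more often than they fell. Of 40 tested, 18 (45%) were higher and 7 (17.5%) lower (median 0.22), against 23.8% and 26% of all tested genes. Without sh5 replicate 3 the counts were 20 higher and 11 lower, against 4353 and 4350 of 13513 genes in that fit. Pmaip1 (NOXA), a promoter of apoptosis, went from 34.2, 32.4 and 33.99 CPM to 121, 126 and 119 CPM (1.87 ± 0.07, adjusted p = 6.5e-08), Btg2, an antiproliferative factor, from 61.1, 67.8 and 65.4 CPM to 238, 219 and 204 CPM (1.77 ± 0.15), and Mdm2, which degrades p53, from 281, 265 and 268 CPM to 403, 449 and 452 CPM (0.68 ± 0.11). Bax (0.68), Ccng1 (0.77) and Plk2 (1.05) rose with them, and Gdf15 (-1.27), Gadd45a (-1.04) and Sesn1 (-0.95) fell. Gdf15 is known as a target of ATF4 as well as of p53.

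S-phase genes had a median near that of all genes, and G2/M genes were more often lower than higher. Of 42 S-phase genes, 6 (14.3%) were higher and 7 (16.7%) lower with a median of 0.00. Of 52 G2/M genes, 6 (11.5%) were higher and 18 (34.6%) lower with a median of -0.16. Over all tested genes the shares were 23.8% higher and 26% lower. Without sh5 replicate 3 the higher and lower counts were 10 and 9 for S phase and 11 and 22 for G2/M. Leaving out another single library took S-phase genes to as few as 2 higher (nt replicate 2 or sh6 replicate 2) and 4 lower (nt replicate 2 or 3), and G2/M genes to 11 lower (nt replicate 3) and 9 lower (sh6 replicate 1). Without sh6 replicate 3, 3 S-phase genes were higher. Mki67, the antigen of cycling cells, went from 77.1, 87.1 and 72.04 CPM to 48.9, 54.1 and 56.7 CPM (-0.56 ± 0.10, adjusted p = 0.000776), and Cenpf, a kinetochore protein, fell by 0.84 on the log2 scale. Pcna, the sliding clamp of replication, overlapped between the groups at 68.9, 74.7 and 73.6 CPM and 71.6, 70.5 and 72.6 CPM. Among 35 cyclins and cell-cycle kinases 9 (25.7%) were higher and 11 (31.4%) lower, near the shares over all genes. Ccnd1, the G1 cyclin, went from 221, 237 and 213 CPM to 79.4, 77.6 and 71.1 CPM (-1.56 ± 0.10, adjusted p = 7.5e-07), Cdk19, the paralogue of Cdk8, fell by 1.51 on the log2 scale, and Cdc25b and Ccna2 by 1.19 and 1.02, whereas Cdc25a rose by 0.82. In Ccnd1, 21.7% of exon bases are shared with an overlapping gene. In the E2F and pocket protein list 7 (36.8%) of 19 rose and 3 (15.8%) fell (median -0.06), against 23.8% and 26% of all tested genes. Without nt replicate 1 or sh6 replicate 3 the members higher numbered 4. E2f4, the repressor E2F of resting cells, rose by 0.67 and E2f6 by 1.17, while Rbl2 (p130) and Foxm1 fell by 0.86 and 0.77. Of the 5 cell-cycle genes named in the study's account of this knockdown, Cdkn2a and Cdkn2c fell, Cdc6 and Cdk8 rose and Cdkn2d did not pass the test. That list was chosen on these samples and is no independent evidence of a direction. By gene set enrichment the study also reported a lower P53 pathway and higher G2M checkpoint and E2F target sets after Atf3 knockdown. In the lists used here 18 of 40 p53 targets were higher and 7 lower, and 18 of 52 G2/M genes were lower and 6 higher. The study's gene sets and measure differ from these lists and counts.

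Insulin-like growth factors and their binding proteins were lower in most members. Of 16 genes of IGF signalling, 10 (62.5%) were lower and 3 (18.8%) higher, with a median of -1.23, against 26% and 23.8% of all tested genes. Igf1 went from 62.6, 58.3 and 56.8 CPM to 6.62, 6.23 and 10.5 CPM (-2.93 ± 0.17, adjusted p = 4.3e-07), and Igf2 fell by 2.16 and the imprinted non-coding RNA H19 beside it by 3.19 on the log2 scale. Igfbp2, Igfbp3, Igfbp4 and Igfbp6, the binding proteins, stood at -2.28, -2.85, -2.06 and -3.18 and each passed the test, whereas Igfbp5 stood at 0.09 and the receptors Igf1r and Igf2r rose by 0.27 and 0.51.

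Of 21 Wnt ligands, antagonists and target genes, 13 (61.9%) were lower and 2 (9.52%) higher, against 26% and 23.8% of all tested genes. Their median was -0.93. The feedback genes Nkd1, Axin2 and Lef1, which rise when Wnt signalling is active, fell by 3.49, 1.47 and 1.54 on the log2 scale, together with the agonists Rspo2 and Rspo3 (-2.47 and -2.37) and the antagonists Sfrp1, Sfrp2 and Sfrp4 (-1.38, -2.95 and -2.26). Wnt5a, a ligand of the non-canonical branch, rose by 0.85. Without nt replicate 2 or 3, or without sh6 replicate 1 or 3, 1 member of the list was higher.

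Genes of ribosome assembly and of energy metabolism were higher with sh6 in most members, by small amounts. Of 45 ribosome biogenesis genes often linked to MYC, 35 (77.8%) were higher and 2 (4.44%) lower, against 23.8% and 26% of all tested genes. Their median was 0.51. This was the largest share of members higher among the lists, and 1 was lower without any 1 of the nt or sh6 libraries. Wdr12, a factor of the large subunit, went from 25.2, 23.4 and 23.9 CPM to 48.1, 53.5 and 50.9 CPM (1.07 ± 0.09) and Nop14, of the small subunit, rose by 0.98, while Nip7 fell by 1.27 on the log2 scale. Myc itself overlapped between the groups, at 36.7, 40.9 and 38.2 CPM and 38.9, 39.9 and 35.5 CPM. Of 61 ribosomal proteins 14 (23%) were lower and 0 higher (median -0.13), so the share lower was not above the 26% of all tested genes. Without sh5 replicate 3 the counts were 27 lower and 4 higher of 62, against 4350 and 4353 of 13513 genes in that fit. The members lower numbered 8 without nt replicate 2 or 3, 9 without sh6 replicate 2 and 7 without sh6 replicate 3, with 1 higher without sh6 replicate 1. These genes have many near-identical copies, which makes their read counts less certain.

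In glycolysis 12 (60%) of 20 genes were higher and 3 (15%) lower (median 0.41), against 23.8% and 26% of all tested genes. The regulator Pfkfb3 stood at 1.19, hexokinase Hk2 at 1.00 and the glucose transporter Slc2a1 at -0.53. In the citrate cycle 12 (54.5%) of 22 were higher and 1 (4.55%) lower (median 0.34), led by Idh3a (0.78) and Mdh2 (0.73). Without sh5 replicate 3 the counts were 16 higher and 2 lower, and over all genes 4353 and 4350 of 13513. Lysosomal genes rose in 21 (55.3%) and fell in 6 (15.8%) of 38 cases (median 0.38). Subunits of the proton pump led them, with Atp6v1b2 going from 116, 106 and 108 CPM to 219, 233 and 227 CPM, and the protease Ctsb rose by 0.93. In Ctsb, 16.3% of exon bases are shared with Fdft1. Glb1, the lysosomal galactosidase read out by the staining of senescent cells, rose by 0.59. The antioxidant targets of NRF2 rose in 12 (50%) and fell in 3 (12.5%) of 24 cases, or 12 and 7 without sh5 replicate 3 (median 0.25), with glutathione reductase Gsr at 1.33 and Gsta4 at -1.21. In cholesterol synthesis 10 (40%) of 25 rose and 1 (4%) fell (median 0.25), with the desaturase Sc5d at 1.74. The counts were 15 and 3 without sh5 replicate 3, with 0 lower without nt replicate 2 or 3 or sh6 replicate 1. Hypoxia-response genes were mixed, with 5 (21.7%) of 23 higher, near the share over all genes, and 10 (43.5%) lower (median -0.15). The lower count was 6 without nt replicate 1 or 3 or sh6 replicate 1. It was 5 without sh6 replicate 2, where 2853 of 13558 genes were lower.

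**Figure D4:**
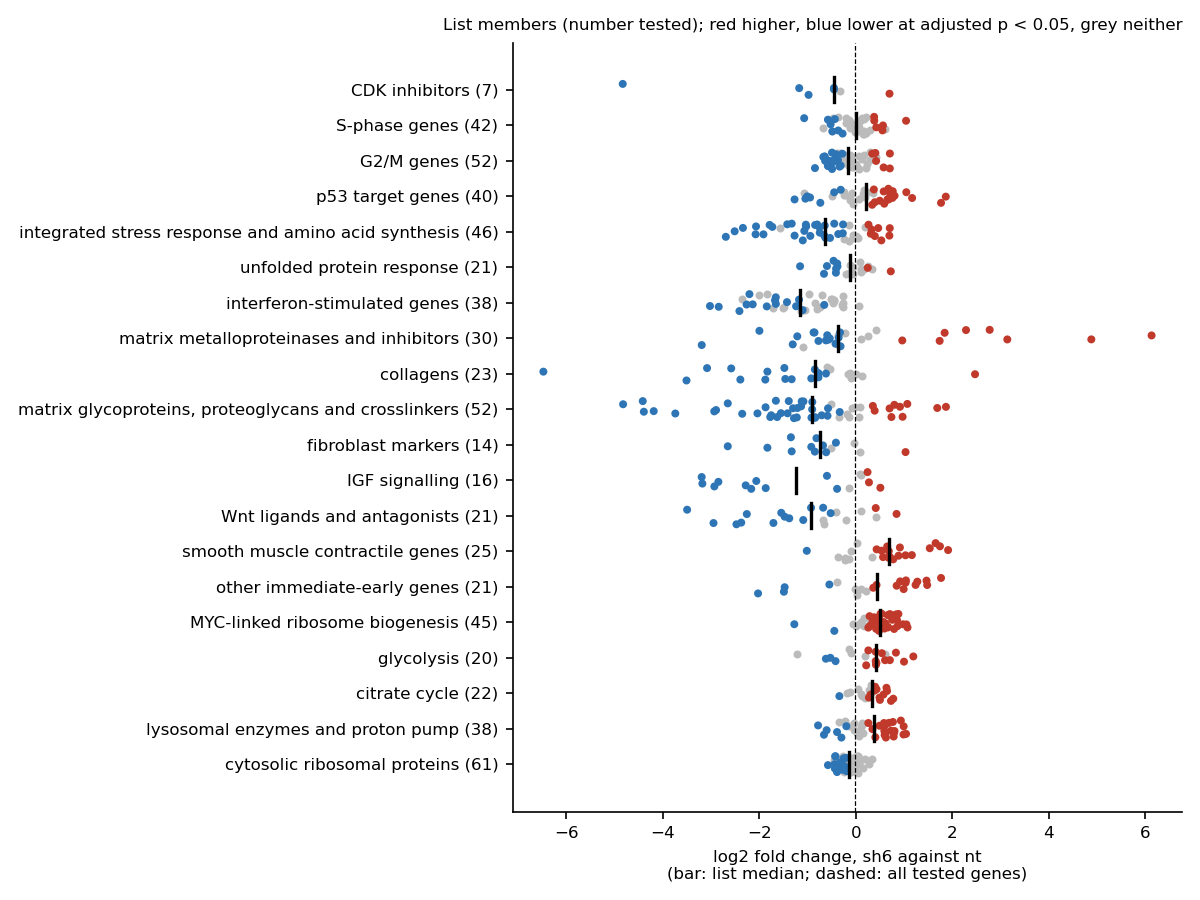
Log2 fold change of sh6 against nt (x axis) for the members of 20 gene lists (rows, with the number tested), red where higher and blue where lower at an adjusted p under 0.05 and grey otherwise, with a bar at each list's median. Medians run from -1.23 for IGF signalling to 0.68 for smooth muscle contractile genes, and the dashed line marks the median of all tested genes at -0.02.

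The fibroblast markers themselves were lower in 10 (71.4%) and higher in 1 (7.14%) of 14 cases (median -0.75), against 26% and 23.8% of all tested genes. Lum, a proteoglycan, went from 59.9, 53.6 and 59.3 CPM to 7.09, 7.97 and 12.4 CPM (-2.65 ± 0.17), the growth factor receptor Pdgfrb fell by 1.34 and Pdgfra by 0.61 on the log2 scale, and Thy1 and Vim stood at 0.08 and -0.04. Dcn was lower in every sh6 library, at 358, 341 and 415 CPM against 584, 479 and 536 CPM, but did not pass the test (adjusted p = 0.0547), which it passed in 5 alternatives, among them DESeq2 (adjusted p = 0.0361) and the fit without sh5 replicate 3 (adjusted p = 2.6e-05). The summed level of 14 macrophage markers ran from 16.6 to 18.2 CPM with nt and from 13.9 to 14.1 with sh6, that of 10 keratinocyte markers from 7.04 to 7.52 and from 7.78 to 8.36, that of 8 endothelial markers from 11.7 to 13.4 and from 5.87 to 8.07, and that of 8 Schwann cell and melanocyte markers from 4.89 to 6.36 and from 2.56 to 3.43. The summed 8 adipocyte markers went from between 136 and 171 CPM to between 42.2 and 61.2 CPM, nearly all of it Lpl, a lipase that fibroblasts also express, with Lep at 0. The 10 skeletal muscle markers went from between 37.3 and 38.5 CPM to between 197 and 215 CPM, nearly all of it Acta1, with Myf5 and Pax7 at 0. In the tested members, macrophage genes counted 1 higher (Cd68) and 2 lower (Csf1r and Lyz2) of 4, endothelial genes 1 lower (Tek) of 3, adipocyte genes 1 lower of 3, Schwann cell and melanocyte genes 1 lower (S100b) of 4, skeletal muscle genes 1 higher and 1 lower of 2, and keratinocyte genes 0 of 3. The Lyz2 call was lost in 4 alternatives, and counts of macrophage, endothelial, skeletal muscle and Schwann cell or melanocyte genes moved by 1 gene in some settings that left out a library.

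The 2 hairpins to Atf3 gave different transcriptomes, with 2102 genes called between them against 2094 between sh6 and nt. In the test of the difference, 849 genes were called higher with sh6 than with sh5, 6.36% of those tested, and 1253 lower, 9.39%. The highest by the fixed rule were Acta1, the channel Trpv2, Ifi27l2b, Siglecg, Myh11 and Ica1l, and the lowest Selenop, Ogn, Ccn3, Agtr2, Col8a2 and Igsf10. Acta1 stood at 14.4, 15.2 and 10.7 CPM with sh5, below nt, so sh6 minus sh5 came to 3.94 ± 0.12 (adjusted p = 5.9e-08). Agtr2 stood at 105, 104 and 96.98 CPM with sh5, 114, 94.7 and 99.9 CPM with nt and 7.21, 5.81 and 7.55 CPM with sh6, so the nt and sh5 libraries overlapped. Igsf10, an immunoglobulin superfamily protein, stood at 182, 179 and 197 CPM with sh5, 139, 134 and 131 CPM with nt and 11.8, 11.99 and 16.4 CPM with sh6, and 16.6% of its exon bases are shared with Med12l. By contrast Mstn, Ptgs2, Ereg and Eln moved away from nt with both hairpins, by 3.87, 1.55, 1.35 and -3.19 with sh5. Both comparisons with nt share its 3 libraries, so such values are not separate evidence. Among lists, sh6 and sh5 had medians of -0.85 and -0.44 for collagens, -0.63 and -0.40 for the integrated stress response, -1.23 and -0.14 for IGF signalling, -0.93 and 0.04 for Wnt genes, and 0.51 and 0.04 for ribosome biogenesis.

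Libraries that share no sample with the knockdown were used to place the sh6 genes on the passage course. From P3 to P7, 4.44% of all genes tested there were called higher and 7.41% lower. Of 579 tested genes that were higher with sh6, 75 (13%) were called higher at P7 and 28 (4.84%) lower, and of 1356 tested genes that were lower with sh6, 168 (12.4%) were lower at P7 and 106 (7.82%) higher. Mstn had the same direction in both (4.45 from P3 to P7), as had Ptgs2 (1.73), Tril (-3.29), H19 (-3.28) and Cmklr1 (-1.55). Cdkn2a, at 3.39, Cdkn2b (1.15), Nupr1 (1.03) and Prelp (1.00) had opposite directions. Cdkn1a rose by 0.99 from P3 to P7, as it rose with sh6. From P5 to P7, 1.19% of genes were called higher and 2.28% lower, and 56 of the sh6-higher genes were higher at P7 and 1 lower, and 82 of the sh6-lower genes were lower and 14 higher.

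Hairpins to other genes gave a further reference. In the Tead1 knockdown, 1.99% of tested genes were called higher and 0.722% lower with sh3, and 1.01% and 0.523% with sh4. Of 1361 sh6-lower genes tested there, 114 (8.38%) were higher and 21 (1.54%) lower with Tead1 sh3, and 64 (4.7%) were higher and 11 (0.808%) lower with Tead1 sh4. Of 574 sh6-higher genes, 13 (2.26%) were higher and 21 (3.66%) lower with Tead1 sh3, and 11 (1.92%) and 16 (2.79%) with sh4. Col8a2 stood at 2.47 and 1.84 with the Tead1 hairpins, Cmklr1 at 1.33 and 1.14 and Ptgs2 at -0.84 and -0.87, each opposite in sign to Atf3 sh6. The E2f4 hairpin sh1 called 1.46% of genes higher and 0.211% lower. Of 503 sh6-higher genes tested there, 25 (4.97%) were higher and 1 (0.199%) lower, and of 1263 sh6-lower genes, 58 (4.59%) were higher and 8 (0.633%) lower. The 2 Tead1 comparisons share their nt libraries with each other.

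**Figure D5:**
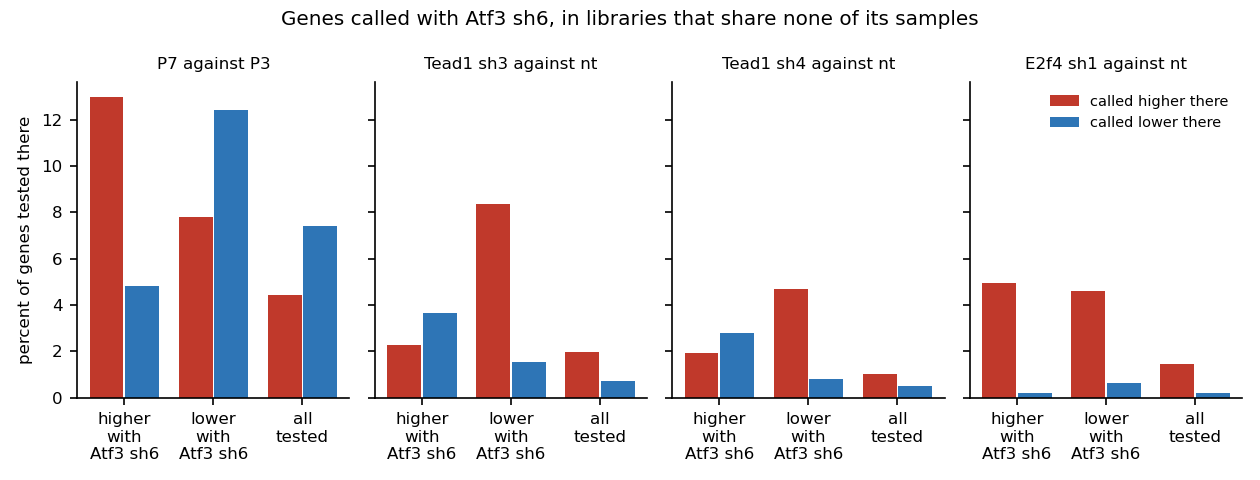
Percent of genes called higher (red) or lower (blue) in 4 comparisons that share no library with Atf3 sh6 (panels), for genes called higher with sh6, genes called lower with sh6 and all genes tested there (x axis). From P3 to P7 the sh6-higher genes were called higher in 13% and the sh6-lower genes lower in 12.4%, while with Tead1 sh3 the sh6-lower genes were called higher in 8.38%.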

How the data were processed

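Read counts per gene came from the deposited files as the authors made them: paired-end reads were trimmed with Trimmomatic 0.39, aligned to mm10 with HISAT2 2.2.1 and counted without strand by HTSeq 0.12.4, giving raw counts with no normalization. Between 10.4% and 16.8% of each Atf3 library's counts lay in rows that name no gene and were left out. The 3 sh6, 3 sh5 and 3 nt libraries were fitted together in edgeR 4.0.16 (R 4.3.3) with its default expression filter, TMM scaling and the quasi-likelihood test, with Benjamini-Hochberg adjustment over 13345 genes. A gene was called at an adjusted p under 0.05 and a change of over 2-fold, and every p in the text is an adjusted p from this test unless another tool is named. Where a single gene or list member is said to pass the test or to lose a call, the adjusted p alone was used. SE is the log2 fold change divided by the root of its F statistic. CPM values use TMM library sizes. Passage, Tead1 and E2f4 libraries were fitted separately in the same way.

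ATAC-seq peaks were called by the authors with MACS2 in each library, and the deposited fold enrichment at the summit was used as given. Gene positions and promoter windows came from RefSeq (GRCm38.p6). Genes named were Atf3, 7 cell-cycle genes, the 12 highest and 12 lowest called genes whose mean log2 CPM reached 3 and whose sh6 and nt libraries lay apart, in each list the members with an adjusted p under 0.05 and the largest changes or members that define the list, and the 6 highest and 6 lowest between the hairpins by the same rule. The members and lists were chosen with earlier results of these data known. Alternatives were DESeq2 1.42.0, its size factors, other filters, only 2 groups, a replicate block, leaving out each library and, added after seeing the data, leaving out sh5 replicate 3 from the shared fit. The scripts were tested on simulated data. Replicate numbers did not pair the samples. Counts cover sampling of reads only, and floors are set at 3 counts. Results for 3 genes that the rule would name are not reported here.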

Additional observations from a re-analysis of the deposited data

Results flagged for a closer look

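The 2 hairpins to Atf3 were compared directly, and the difference between them passed the edgeR quasi-likelihood test (adjusted p under 0.05 and over 2-fold) for 2102 genes. On the log2 scale, sh6 minus sh5 was 3.94 for Acta1, 3.85 for Trpv2, 3.72 for Ifi27l2b, 3.46 for Siglecg, 3.39 for Myh11 and 3.08 for Ica1l. It was -4.76 for Selenop, -4.35 for Ogn, -3.94 for Ccn3, -3.89 for Agtr2, -3.85 for Col8a2 and -3.79 for Igsf10. Atf3 itself did not pass that test (0.35, adjusted p = 0.504). These 12 genes were taken as extremes, so their sizes are a description. Library sh5 replicate 3 stood apart from all others, and without it 2056 genes were called between the hairpins.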

How the results depend on the processing

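The count of genes called with sh6 lay between 1560 (at least 10 counts in every library) and 2261 (without sh5 replicate 3), against 2094 in the main fit, with more genes lower than higher each time. A test against a fold change of 1.5 called 2233 (796 higher and 1437 lower). Atf3 stayed negative in every alternative that tested it, from -0.95 to -0.69 when 1 library was left out, and passed the test with only the 2 groups (-0.79) and without sh5 replicate 3 (-0.78). Its low counts limit its precision, and it was not tested under the filter of 10 counts in every library. Cdkn2a passed in each alternative. Against P5 in place of P3, genes called at P7 in the direction opposite to sh6 numbered 1 of those higher with sh6 and 14 of those lower, against 28 and 106, and the cause was not tested. With a replicate block, 2078 genes were called (645 higher and 1433 lower), 6405 passed the adjusted p alone, 520 list members passed, 2103 genes were called between the hairpins, and Atf3 and Cdkn2a stood at -0.78 and -1.01. Deviations of same-numbered sh6 and nt libraries correlated at -0.158, 0.0251 and -0.108. In the passage fit with a replicate block the opposite counts were 29 and 111. Among 174 named genes over 2250 combinations of gene and setting, an adjusted p under 0.05 was lost in 59 and gained in 10, and 10 turned sign. Those that turned had values near 0: Fos was 0.010 with DESeq2, 0.0093 with its size factors, 0.0081 with no filter, 0.0029 without sh5 replicate 3 and between -0.13 and 0.13 with 1 library left out, Pcna lay between -0.052 and 0.0057 and Myc between -0.056 and 0.036.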
